A study of Homo sapiens with 9 samples.

Results

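The genes examined here encode the translation initiation factors eIF1 to eIF6, the elongation factors eEF1 and eEF2, and further proteins named after them. The latter include kinases, binding proteins and a methyltransferase, and all are called factor genes below. They were chosen by name: every gene model whose name begins with EIF and a number from 1 to 6, with EEF1 or with EEF2, leaving out EIF1AY, pseudogenes and antisense names. The rule found 64 of the 26485 gene models in the 9 count files, and left out 2 pseudogenes (EEF1DP3 and EIF3IP1) and 4 antisense names. It used no measured value. The study sequenced RNA of HAP1 cells, a near-haploid human line of wild-type genotype that grows attached to its dish, after isolation with NAxtra magnetic nanoparticles. The libraries were made with the SMART-Seq Stranded Kit from 1 sorted cell (3 libraries), 10 cells (2), 100 cells (2) and 1000 cells (2). All groups share the line, the genotype and the untreated state, so the cell number is what separates them, and the smaller inputs are set against the larger ones. The labels call the replicates biological, and separate cultures are not mentioned, so p-values measure the spread between these libraries. The labels give every library the same DNase volume while the methods give 1000 cells a larger one, so DNase and cell number cannot be told apart in comparisons with 1000 cells.

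The libraries held between 42842970 and 61645865 counts assigned to genes, and TMM scaling factors lay between 0.976 and 1.01. Counts are given as CPM, counts scaled to a TMM library size of 1000000, or, where genes are compared with each other, as TPM, which also divides by gene length. Of 8 blood markers at most 1 reached 1 CPM in any library, none of 3 keratinocyte markers had a count, and 1 to 2 of 5 markers each of fibroblasts and plasma cells reached 1 CPM in every library. The summed level of the plasma cell markers was 42.6 to 61.8 CPM in single cells and 46.8 to 54.6 CPM in the other libraries, with TNFRSF17 at 0 throughout.

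Initiation begins when eIF2, bound to GTP and the initiator tRNA, joins eIF1, eIF1A, eIF3 and eIF5 on the small ribosomal subunit. The cap-binding protein eIF4E, the scaffold eIF4G and the helicase eIF4A bring the mRNA to this complex, which scans to the start codon, and eIF5B then joins the large subunit. During elongation eEF1A delivers aminoacyl-tRNAs and eEF2 moves the ribosome along. Kinases of eIF2 alpha, the eIF4E-binding proteins and the eEF2 kinase slow the process under stress or nutrient shortage. Many mRNAs of this machinery begin with a C followed by a run of pyrimidines, the terminal oligopyrimidine (TOP) tract through which mTOR signalling controls their translation.

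Of the 64 genes, 59 had counts in every library, 58 averaged at least 10 CPM and 22 were among the 500 gene models of highest mean TPM. The median gene of the 64 averaged 140 CPM, against 21.0 CPM for the median of all genes tested. Another 5 genes had 0 counts in at least 1 library. EIF4A1, the main eIF4A helicase gene (chr17:7572706-7579006 on hg38), had 0 counts in all 9 libraries. All 1877 of its exonic bases also lie in the gene model of the readthrough SENP3-EIF4A1, and reads that overlap more than 1 gene model were not counted. SENP3-EIF4A1 itself held 2, 7 and 3 counts in single cells and 11 to 51 in the others, so the level of EIF4A1 cannot be read from these files. EEF1E1-BLOC1S5, a noncoding readthrough, was at 0 for the same reason, with 100% of its bases in other models. EIF3CL was at 0 in every library with 6 bases of its own, while EIF3C, which encodes an eIF3 core subunit, kept 904 bases and 10 to 54 counts per library. Its low values are therefore no measure of the subunit's mRNA. Across the annotation 604 of 26485 gene models (2.28%) have every exonic base inside another model.

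The remaining zeros belonged to genes with few counts in the other libraries. EIF4E1B, an eIF4E relative best known from oocytes, had 0 counts in the 3 single cells, and 14, 0, 0, 2, 12 and 2 counts in the 6 libraries of 10, 100 and 1000 cells. EIF4EBP3, an eIF4E-binding protein gene with 175 bases outside a readthrough model, had 0 counts in the 3 single cells and 0 to 27 in the other libraries. With 74.7% of its exonic bases inside that model, the counts of EIF4EBP3 are no measure of its mRNA. A count of 0 allows up to 3 counts, or 0.0487 to 0.07 CPM depending on the library, and this limit covers counting error only, since amplified reads without molecular identifiers are not independent molecules. Reads that map to several places were also dropped. In 1 GENCODE 29 transcript per gene, available for 62 of the genes, 31 shared no 50-base window with a transcript of another locus, 26 shared at least 1% of their windows and 13 at least 20%. The share was 64.2% for EEF1G, 45.0% for EEF1B2 and 33.7% for EEF1A1, whose windows matched 28 other genes, so these levels are lower bounds. For EEF1A2 it was 0%.

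EEF2, which encodes the translocation factor, had the highest level of the genes as counted, with 2134 ± 159 TPM in single cells (SD, n = 3) and 2058 ± 87.8 TPM in the libraries of 10, 100 and 1000 cells (SD, n = 6, here and below over the 3 cell numbers together). EEF1G, a subunit of the exchange factor that recharges eEF1A, followed with 928 ± 123 TPM in single cells and 1012 ± 37.7 TPM in the others. EEF1A1 had 759 ± 61.0 TPM in single cells and 852 ± 26.7 TPM in the others. The values of EEF1G and EEF1A1 are lower bounds, so their order after EEF2 is that of the counts and not of the mRNAs. The other genes that act on eEF2 were far lower: EEF2K, its kinase, had 22.2 ± 6.41 TPM in single cells and 26.0 ± 1.57 TPM in the others, and EEF2KMT, its lysine methyltransferase, 26.1 ± 12.9 and 18.2 ± 1.24 TPM.

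Within eIF3, the scaffold that links the mRNA to the small subunit, 12 of the 14 genes averaged between 78.6 TPM (EIF3J) and 424 TPM (EIF3A), and the other 2 were EIF3C and EIF3CL. EIF3J encodes the loosely bound subunit, EIF3A the largest. The trimeric eIF2 was uneven at this level. EIF2S3, the GTP-binding gamma subunit, had 403 ± 19.5 TPM in single cells and 415 ± 26.0 TPM in the others. EIF2S2, the beta subunit, had 94.4 ± 14.4 and 133 ± 10.5 TPM, and EIF2S1, the alpha subunit that stress kinases phosphorylate, 83.6 ± 7.63 and 102 ± 3.92 TPM. The 5 subunits of eIF2B, which recharges eIF2 with GTP, averaged between 37.7 TPM (EIF2B2) and 94.6 TPM (EIF2B1). The values rest on the length of the whole gene model, so transcripts shorter than the model read too low.

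**Figure D1:**
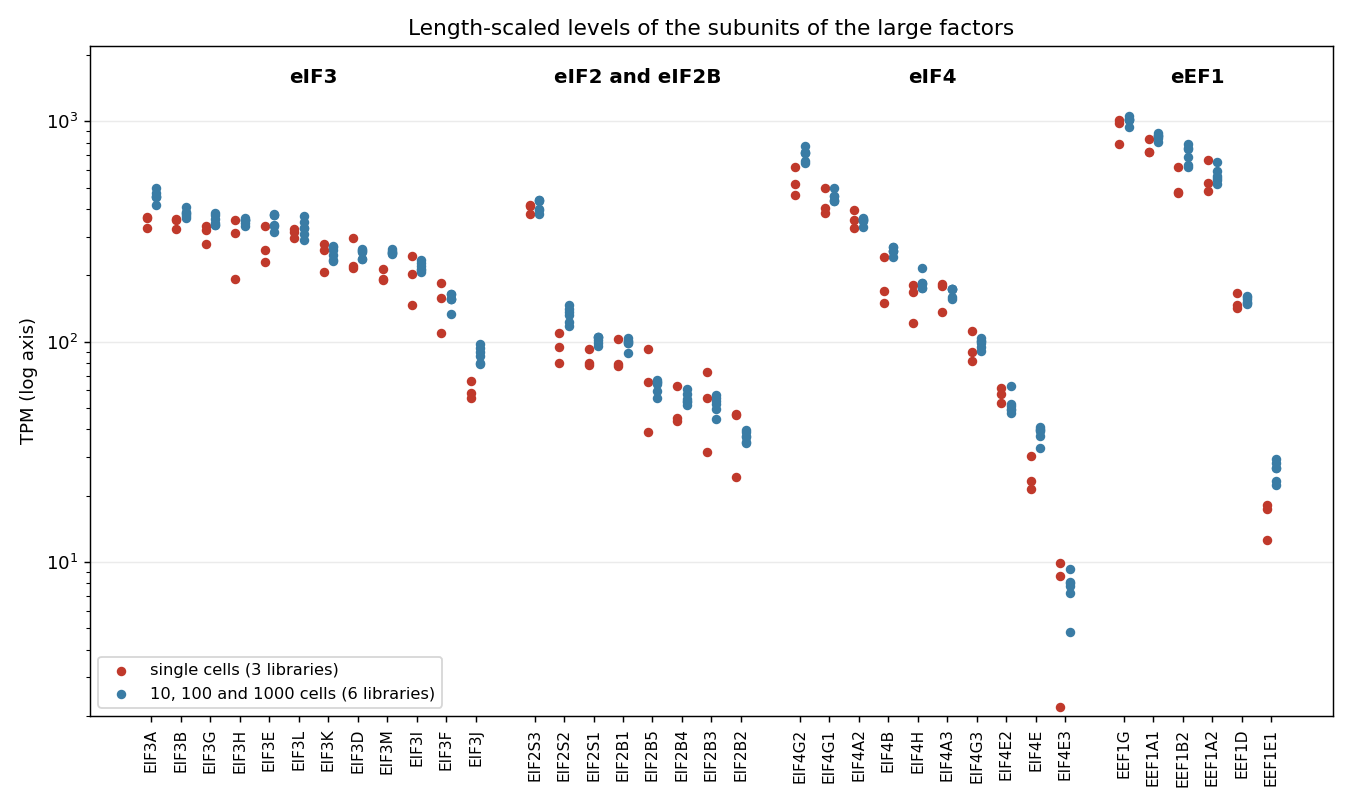
TPM on a log axis for the genes of eIF3, eIF2 with eIF2B, eIF4 and eEF1 with a mean of at least 1 TPM, with 1 point per library (red, 3 single cells; blue, 6 libraries of 10, 100 and 1000 cells). EIF2S3 averaged 411 TPM over the 9 libraries, above the other eIF2 subunits, and the single cells spread more widely than the other libraries for most genes.

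Among the eIF4 genes whose counts could be read, which leaves out EIF4A1, the scaffold relative EIF4G2, which lacks the eIF4E-binding site, led with 534 ± 80.0 TPM in single cells and 708 ± 45.7 TPM in the others, ahead of EIF4G1, the main scaffold, with 429 ± 62.8 and 454 ± 24.7 TPM. EIF4A2, the helicase paralog of EIF4A1, had 361 ± 34.6 and 353 ± 11.9 TPM. EIF4EBP1, the best known eIF4E-binding protein, had 376 ± 89.1 TPM in single cells and 339 ± 27.0 TPM in the others, against 25 ± 4.67 and 38.4 ± 3.0 TPM for its target EIF4E. The EIF4E values read too low as far as its transcripts are shorter than its 5040-base model or lost reads to copies. In CPM, EIF4EBP1 and EIF4E averaged 163.7 and 64.5 in single cells, and 141.0 and 93.6 in the others. EIF1, which guards start codon choice, had 328 ± 11 TPM in single cells and 344 ± 10.3 TPM in the others. The eIF2 alpha kinases ranged in mean from 9.36 TPM for EIF2AK3 (PERK, the kinase of endoplasmic reticulum stress) to 82.1 TPM for EIF2AK1 (HRI). EIF5B, the subunit joining GTPase, averaged 210 TPM and EIF6, which keeps the large subunit apart, 90.1 TPM. The carriers EIF2A and EIF2D, which can bring initiator tRNA without eIF2, averaged 45.7 and 42.7 TPM.

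The transcription starts were read from RefSeq promoters on GRCh38.p14, where 52 of the 64 genes have an entry. A start with C followed by at least 4 further C or T bases was found on the coding strand in 12 of them (23.1%), and in 1404 of all 27305 genes with a start (5.14%). Below are 6 of the 12, from 10 bases before the start to 20 bases from it, with the run in capitals. They are the 5 that also stand on a list of well described TOP mRNAs, and EIF3M, which changed in single cells. Further copies of the letters elsewhere in the window are not marked.
EEF2, chr19:3985444-3985473, minus strand: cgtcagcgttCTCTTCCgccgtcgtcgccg
EEF1A1, chr6:73521013-73521042, minus strand: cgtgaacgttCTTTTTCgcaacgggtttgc
EEF1B2, chr2:206159885-206159914, plus strand: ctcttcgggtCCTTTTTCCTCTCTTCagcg
EIF3F, chr11:7987327-7987356, plus strand: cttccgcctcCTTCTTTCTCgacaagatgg
EIF4B, chr12:53006446-53006475, plus strand: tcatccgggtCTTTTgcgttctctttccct
EIF3M, chr11:32583821-32583850, plus strand: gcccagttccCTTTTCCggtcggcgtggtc

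The runs were 5 (EIF4B) to 16 bases (EEF1B2) long. The other 6 genes with a run were EIF2D, EIF2A, EIF2S3, EIF3D, EIF3K and EIF4A2. A match describes the annotated start and not the start used in these cells, which these counts do not give.

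The first comparison asked how the factor mRNAs of 1 cell differ from those of 10 to 1000 cells. In edgeR's quasi-likelihood test with Benjamini-Hochberg adjustment over 15603 genes, 59 of the 64 could be tested, and 1 was higher and 6 were lower in single cells at an adjusted p under 0.05. Over all genes tested 2.22% were higher and 4.45% lower, 6.67% in either direction. At an unadjusted p under 0.05 there were 20 of the 59, where 24.5% of all genes were. EIF1AD rose, and EIF3A, EIF3J, EIF3M, EIF2S2, EIF4E and EIF4G2 fell. The median log2 difference of the 59 was -0.05, with 35 below 0, against 0.01 for all genes tested. The calls depended on the libraries and on the fit: none of the factor genes was called when 100 cells Rep 2, 1000 cells Rep 1 or 1000 cells Rep 2 was left out, when single cells were set against 1000 cells alone, or in the edgeR fit over all 9 libraries, and in these fits 0 of all genes were called either. The limma voom fit over all 9 libraries, which gives each cell number its own spread, called 8 of 16184 genes and no factor gene. edgeR's test takes 1 spread per gene for all libraries compared, although single cells varied more than the others. Leaving out 10 cells Rep 1, 10 cells Rep 2 or 100 cells Rep 1 left 4, 3 and 4 of 59 factor genes, where 4.78%, 4.33% and 4.4% of all genes were called. Leaving out Single Cell Rep 2 gave 11 of 61, where 19.8% of all genes were called, and DESeq2 gave 14 of 61, where 15.9% were.

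EIF1AD, a protein with an eIF1A domain, had 59.4, 66.0 and 72.7 CPM in the 3 single cells, against 33.7 to 49.5 CPM with a median of 36.7 CPM in the 6 other libraries. Every single cell was above every other library, and the log2 difference was 0.78 (SE 0.14, adjusted p = 0.0188). None of its 50-base windows was shared with another locus.

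Among eIF3 genes, EIF3A had 937, 992 and 925 CPM in the single cells, against 1088 to 1272 CPM with a median of 1171 CPM in the others, a log2 difference of -0.31 (SE 0.06, adjusted p = 0.0222). EIF3J had 69.1, 86.3 and 79.7 CPM in the single cells, against 99.0 to 119.8 CPM with a median of 108.5 CPM in the others (log2 difference -0.47, SE 0.11, adjusted p = 0.0285). EIF3M, a further subunit of the complex, had 159.4, 187.7 and 175.5 CPM, against 205.8 to 215.9 CPM with a median of 212.4 CPM (log2 difference -0.28, SE 0.07, adjusted p = 0.0407). In none of these 3 genes did the single cells overlap the other libraries. The remaining 10 eIF3 genes tested were not called, with log2 differences from -0.29 (EIF3E) to 0.64 (EIF3C, at under 2 CPM).

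EIF2S2 had 137.6, 124.3 and 110.1 CPM in the single cells, against 150.9 to 184.4 CPM with a median of 167.6 CPM in the others, also without overlap (log2 difference -0.42, SE 0.10, adjusted p = 0.0296). Its transcript shares 22.6% of its windows with other loci. The other eIF2 subunits were not called: EIF2S1 had a log2 difference of -0.21 (adjusted p = 0.0897) and EIF2S3 of 0.03 (adjusted p = 0.823). The 5 eIF2B subunits lay between -0.11 and 0.15.

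Of the cap-binding group, EIF4G2 had 1106, 1378 and 1068 CPM in the single cells, against 1390 to 1625 CPM with a median of 1501 CPM in the others (log2 difference -0.33, SE 0.08, adjusted p = 0.0398). Single Cell Rep 2 lay close to the lowest of the 6 libraries, the other single cells well under it. EIF4E had 52.8, 59.6 and 81.0 CPM in the single cells, against 80.0 to 99.8 CPM with a median of 95.8 CPM in the others (log2 difference -0.54, SE 0.14, adjusted p = 0.0407). Single Cell Rep 3 overlapped the other libraries, just above 100 cells Rep 1. EIF4G1 and EIF4A2 were not called, with log2 differences of -0.01 and 0.11.

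**Figure D2:**
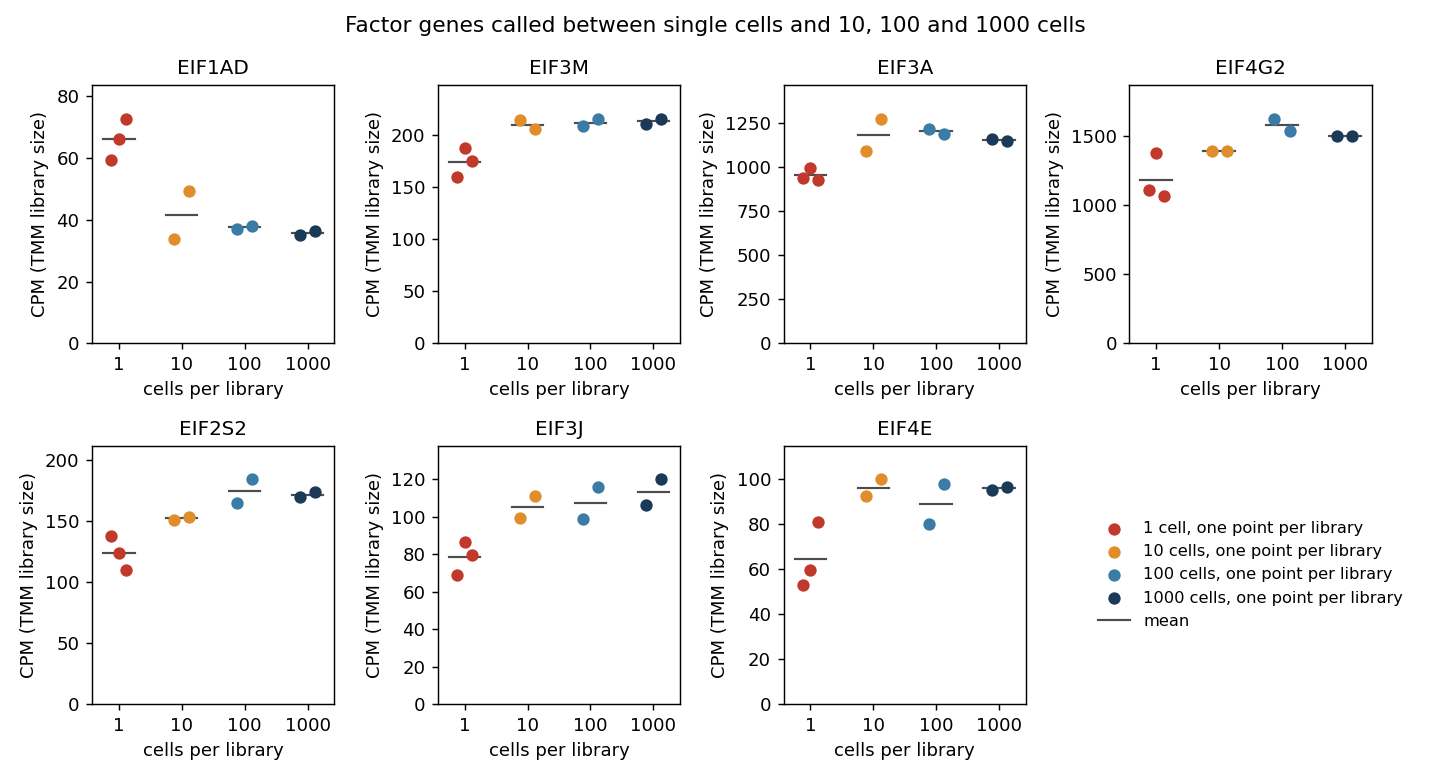
CPM by library for the 7 genes called between single cells and 10, 100 and 1000 cells. Each point is a library, each line the mean of a cell number. EIF1AD is above 59 CPM in every single cell and under 50 CPM in every other library, and the other 6 genes are lower in single cells, with overlap only for EIF4E.

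None of the EEF1 and EEF2 genes was called. EEF2 had a log2 difference of 0.12 (adjusted p = 0.162), EEF1A1 of -0.09 (adjusted p = 0.388) and EEF1B2, a subunit of the eEF1A exchange factor, of -0.35 (adjusted p = 0.0918). The 4 eIF2 alpha kinases were not called either, with log2 differences between -0.37 (EIF2AK2, the double-stranded RNA kinase PKR) and -0.01 (EIF2AK1). Of the 12 genes whose start carries a pyrimidine run, 1 fell (EIF3M), and their median log2 difference was 0.04, with 4 below 0. A list of 12 factor genes widely described as TOP mRNAs had 1 lower gene (EIF3A) and a median of -0.11, with 9 below 0. Of that list 6 genes had a start sequence to search, and 5 of those are among the 12 starts with a run.

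A list of 37 further genes of the pathway (termination, recycling, poly(A) binding, mTOR signalling and the modification of eEF2 and eIF5A) had 36 tested, with 1 higher and 1 lower. EEFSEC, the elongation factor for selenocysteine, had 37.2, 30.1 and 41.4 CPM in single cells, against 16.9 to 25.9 CPM with a median of 21.9 CPM in the others (log2 difference 0.75, SE 0.18, adjusted p = 0.0347). PAIP1, which links the poly(A)-binding protein to eIF4A and eIF3, had 104.6, 107.1 and 87.5 CPM in single cells, against 147.3 to 170.4 CPM with a median of 163.2 CPM in the others (log2 difference -0.70, SE 0.09, adjusted p = 0.0131). Neither gene's single cells overlapped the other libraries. The median of the 36 was -0.05.

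All 3 single cells lay below all 6 other libraries in 8 of the 59 genes and above them in 2, where 10.1% and 4.94% of all genes tested did. Besides the genes called, these were EIF4ENIF1, EEF1E1 and EIF2S1 below and EIF5AL1 above, named here because of this pattern. EEF1E1, a scaffold of the tRNA synthetase complex, had 7.61, 11.5 and 11.5 CPM in the single cells and 13.7 to 17.6 CPM in the others (adjusted p = 0.132).

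Summed over the eIF3 genes, the level was 3049, 3145 and 2758 TPM in single cells and 3308 to 3565 TPM in the others, a ratio of 0.864. For the eIF4 genes it was 2030, 2137 and 1888 TPM in single cells and 2275 to 2394 TPM in the others, a ratio of 0.869. In these 2 of 11 role groups every single cell was below every other library under all 4 scalings, tried after the values were seen. The scalings were TPM, CPM with TMM, CPM with plain totals, and size factors from the median of ratios, with ratios up to 0.896 and 0.912. The sums weigh the highest genes most. EIF4G2 had 534 and 708 TPM in single cells and the others, and EIF4B 187 and 259 TPM. Of the 10 eIF4 genes tested 4 had log2 differences above 0, with a median of -0.03. Of the 13 eIF3 genes tested 4 were above 0, with a median of -0.08. Over all 64 genes the sum was 13200, 13530 and 12440 TPM in single cells and 13870 to 14610 TPM in the others, a ratio of 0.91, but with median-of-ratios size factors the ratio was 0.962 and the groups overlapped. The 37 further pathway genes had a TPM ratio of 0.908, also without overlap. Under the other scalings their ratios were 0.976 to 0.996, with overlap. The group of EEF2, its kinase and methyltransferase had ratios from 1.04 to 1.1, with overlap under each scaling. These sums are descriptions without a test, and in scaled libraries a lower level of these mRNAs and a higher level of the rest cannot be told apart. For the libraries of several cells, fewer cells with a transcript and less of it per cell cannot be told apart either.

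The single cells also differed from each other. Counting a gene as departing when its log2 CPM was over 0.5 away from the 6-library mean and outside the range of those 6, 11, 10 and 11 of the 59 genes did so in Single Cell Rep 1, 2 and 3. Of all genes tested 44.2%, 43.7% and 50.6% did, and of the 2340 genes with at least 100 CPM 11.1%, 10.1% and 16.2%. Among the 37 factor genes at that level 3, 1 and 4 departed. In each of the 6 other libraries, set against the remaining 5, at most 2 of the 59 did, where 4.14% to 17.3% of all genes did.

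**Figure D3:**
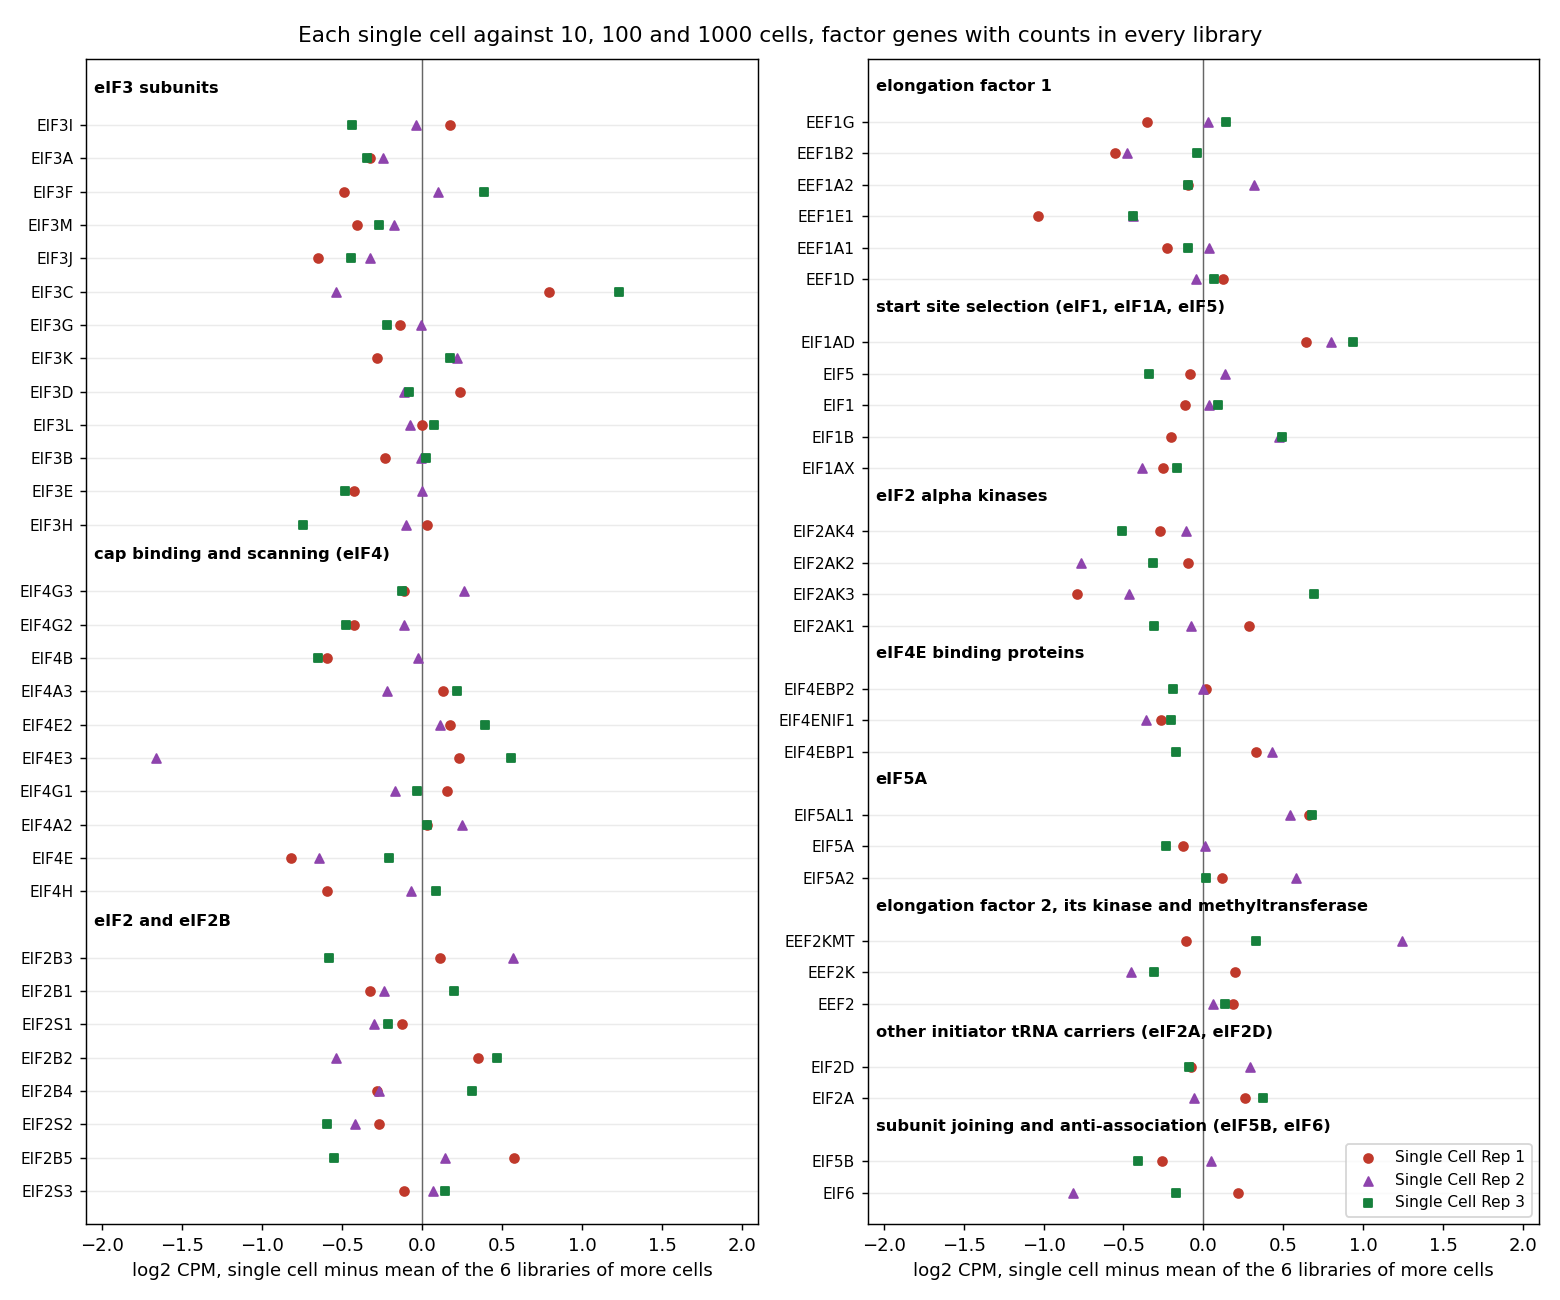
Difference in log2 CPM between each single cell and the mean of the 6 libraries of 10, 100 and 1000 cells, for the 59 factor genes with counts in every library, by role. Circles, triangles and squares are Single Cell Rep 1, 2 and 3; most points lie within 0.5 of 0, and EIF4E3 in Rep 2 is farthest below it.

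The 5 widest ranges among single cells, for genes of at least 10 CPM, belonged to genes of moderate level. EIF4E3, a cap-binding relative of eIF4E, measured 28.2, 7.56 and 35.5 CPM in Single Cell Rep 1, 2 and 3, against 16 to 30.1 CPM in the other libraries. EIF2AK3 had 12.5, 15.7 and 35.0 CPM in the single cells, while the other libraries kept to 20.5 to 23.2 CPM. EEF2KMT had 19.6, 49.95 and 26.5 CPM, against 18.9 to 22.9 CPM, and Single Cell Rep 2 stood alone there.

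Both remaining genes encode subunits of the eIF2B exchange factor. EIF2B3 had 59.0, 80.8 and 36.5 CPM in Single Cell Rep 1, 2 and 3, against 46.6 to 59.8 CPM in the other libraries. EIF2B5, the catalytic subunit, had 130.7, 97.0 and 59.9 CPM in the single cells, against 77.2 to 93.0 CPM in the others. In both genes Single Cell Rep 3 was lowest and under every other library, while the highest single cell was Rep 2 for EIF2B3 and Rep 1 for EIF2B5. The remaining eIF2B subunits went the other way, with Single Cell Rep 3 highest and above every other library. There EIF2B1 had 102.1 CPM, EIF2B2 38.1 CPM and EIF2B4 63.0 CPM. The highest of the 6 libraries of more cells had 94.0, 29.5 and 55.6 CPM. EIF6 had 78.8, 38.5 and 60.1 CPM, with the other 6 libraries between 66.3 and 69.8 CPM.

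The median SD of log2 CPM over the 59 genes was 0.234 among the 3 single cells, and 0.0882, 0.0768 and 0.0259 between the 2 libraries of 10, 100 and 1000 cells. For all genes with at least 10 CPM it was 0.403, 0.111, 0.105 and 0.0448 in the same order, and for all genes with at least 100 CPM 0.228, 0.0661, 0.0710 and 0.0261. The 37 factor genes of at least 100 CPM had 0.192, 0.0669, 0.0558 and 0.0212. The factor genes also had a higher level than most genes, and its part in their spread was not tested. With 1 single cell left out, and so over 2 libraries as in the other groups, the value for the 59 genes was 0.199 without Rep 1, 0.155 without Rep 2 and 0.216 without Rep 3.

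**Figure D4:**
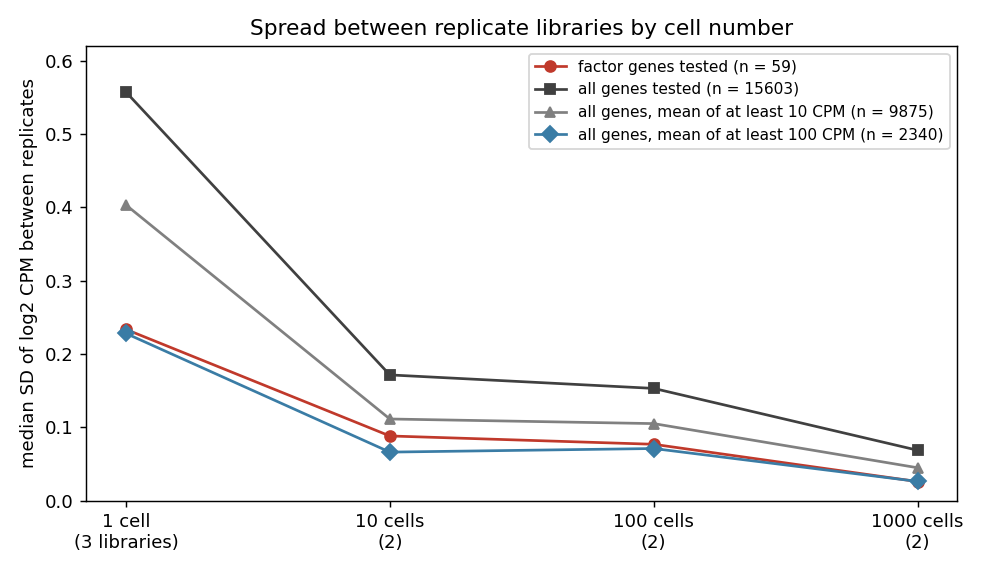
Median SD of log2 CPM between replicate libraries at 1, 10, 100 and 1000 cells, for the 59 factor genes tested, all 15603 genes tested, and those with a mean of at least 10 or 100 CPM. The factor genes go from 0.234 at 1 cell to 0.0259 at 1000 cells and run close to the genes of at least 100 CPM.

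Pairs of related genes were compared within each library as the share of one in the sum of both, from counts divided by gene length. Of 7 pairs fixed by name, EIF4A1 with EIF4A2 gave no share, since EIF4A1 was at 0. The share of EIF4E2, a cap-binding protein that takes part in repression, in EIF4E plus EIF4E2 was 72.9%, 69.5% and 67.1% in the single cells, 58.2% and 54.3% in 10 cells, 65.6% and 55.3% in 100 cells, and 56.6% and 54.2% in 1000 cells. Every single cell was above every other library, by 12.5 percentage points on average. An exact two-sided permutation test over all 84 choices of 3 libraries gave p = 0.0119, the smallest it can give. After adjustment over the 7 pairs it was 0.0833, which does not pass. A pair alone could not have passed in this design, so the failure to pass decides nothing. EIF4E2 itself was not called, with a log2 difference of 0.22 (adjusted p = 0.242), while EIF4E was. In a 1132-base transcript of EIF4E, shorter than its 5040-base model, 45.9% of windows were shared with other loci.

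**Figure D5:**
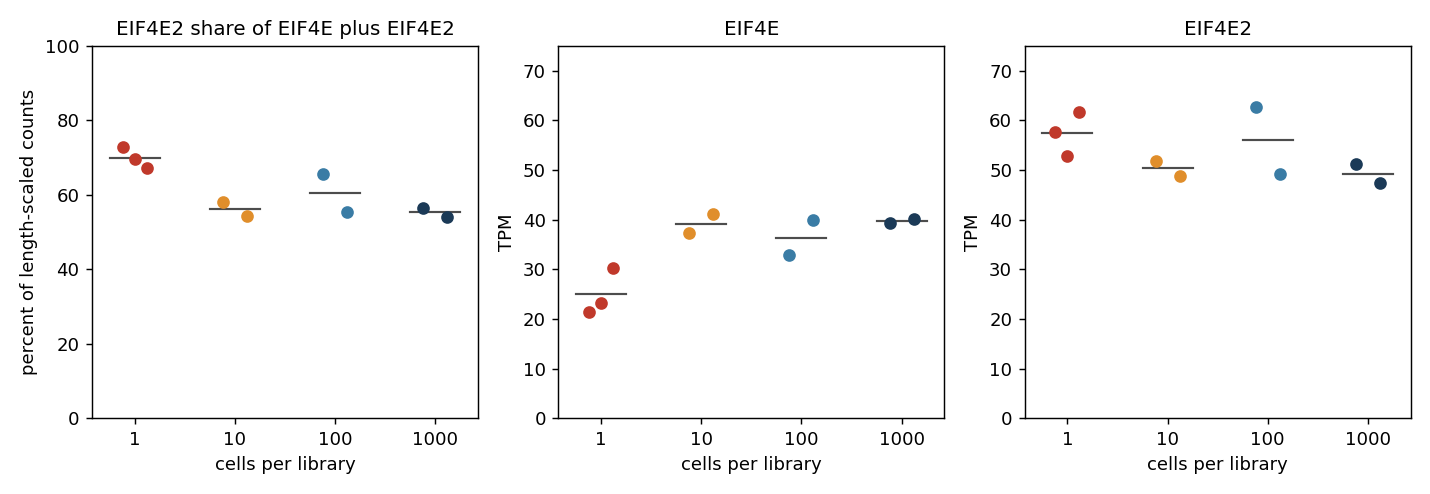
Left, the share of EIF4E2 in EIF4E plus EIF4E2 in percent of length-scaled counts; middle and right, TPM of EIF4E and EIF4E2, by cells per library, with 1 point per library and the mean as a line. The single cells hold 67.1% to 72.9% EIF4E2 and the other libraries 54.2% to 65.6%.

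The other shares did not pass either. EEF1A2, the eEF1A form usually found in muscle and nerve, made up 42.3% ± 2.35 of EEF1A1 plus EEF1A2 in single cells (SD, n = 3) and 40.1% ± 2.32 in the other libraries (SD, n = 6; exact permutation p = 0.25). This overstates it as far as EEF1A1 lost reads to its copies, or has transcripts shorter than its 3512-base model (EEF1A2: 2007 bases). Not divided by length, EEF1A1 and EEF1A2 averaged 1358 and 572.8 CPM in single cells, and 1447 and 553.7 CPM in the others. EIF5A2 made up 1.67% ± 0.218 of EIF5A plus EIF5A2 in single cells and 1.32% ± 0.233 in the others (exact permutation p = 0.0595). EIF2AK4 (GCN2, the amino acid sensor) made up 34.2% ± 4.15 of EIF2AK1 plus EIF2AK4 in single cells and 38.3% ± 2.13 in the others (exact permutation p = 0.0714). EIF1B and EIF4G3 differed by 2.03 and 0.424 percentage points (exact permutation p = 0.274 and 0.762). These differences moved when 1 library was left out. Without Single Cell Rep 1 that of EIF1B was 3.43, that of EIF4G3 1.90 and that of EIF2AK4 -1.87 percentage points, the last against -4.13 with all libraries. Without Single Cell Rep 2 that of EIF4G3 was -1.75, that of EIF1B 1.23, that of EEF1A2 1.06 and that of EIF5A2 0.221 percentage points, and without Single Cell Rep 3 that of EEF1A2 was 3.40 and that of EIF4G3 1.12. Without 10 cells Rep 1 that of EIF1B was 1.31 percentage points.

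EIF5AL1 is a near copy of EIF5A, the factor that helps ribosomes past stalling peptides. It had 50.9, 46.9 and 51.7 CPM in the single cells, against 24.7 to 42.6 CPM with a median of 30.3 CPM in the others, without overlap (log2 difference 0.60, adjusted p = 0.0688). EIF5A had 412, 454 and 384 CPM in single cells and 413 to 477 CPM in the others (log2 difference -0.12). The coding regions, each of 465 bases in GENCODE 29 transcripts on GRCh38, differ at 5 bases (98.9% identity). Coding bases 76 to 135, shown here with the differing bases in capitals, hold 3 of the 5, and a 50-base read can be assigned only where it covers such a base or leaves the shared stretch.
EIF5A, chromosome 17, plus strand: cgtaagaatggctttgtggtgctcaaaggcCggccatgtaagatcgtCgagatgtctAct
EIF5AL1, chromosome 10, plus strand: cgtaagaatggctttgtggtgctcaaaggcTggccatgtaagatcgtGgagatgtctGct

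Between 10 and 1000 cells none of 60 factor genes tested was called by edgeR's test, nor was any of the 15449 genes (0%). At an unadjusted p under 0.05 there were 13 of the 60, where 11.2% of all genes were, and of the 13 there were 5 higher and 8 lower in 10 cells. The lowest p was that of EEF1B2, at 339.5 and 337.4 CPM in 10 cells, against 399.0 and 417.8 CPM in 1000 cells (log2 difference -0.27, SE 0.05, adjusted p = 0.264). EEF2 came next, higher in 10 cells, with 3206 and 3299 CPM in 10 cells, against 2991 and 3025 CPM in 1000 cells (log2 difference 0.12, SE 0.03, adjusted p = 0.333). EIF1AX, the X-linked eIF1A gene, was at 130.5 and 136.0 CPM in 10 cells, against 151.8 and 167.3 CPM in 1000 cells (log2 difference -0.26, adjusted p = 0.35). These genes were shown for their low p, so the lack of overlap between their libraries of 10 and 1000 cells adds no support. The share of all genes without such overlap was not computed. The median of the 60 was -0.03, with 38 below 0, against 0.0067 for all genes tested, with 48.8% below 0. Of the 12 genes with a pyrimidine run 10 were below 0, with a median of -0.05. Of the 12 on the TOP list 8 were below 0, and of 37 factor genes tested whose start lacks a run 24 were. DESeq2 called 1 factor gene of 61, EEF1B2, among 196 of 19820 genes (0.989%). Leaving out 10 cells Rep 1 or Rep 2 leaves a lone library, so only the effect is given. The median log2 difference of the factor genes was then -0.0064 and -0.0669.

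Between 100 and 1000 cells none of 59 factor genes was called by edgeR, nor was any of the 15597 genes (0%). At an unadjusted p under 0.05 there was none of the 59, where 2.01% of all genes were, and DESeq2 called none. The log2 differences of the 59 ran from -0.21 (EIF3C) to 0.27 (EIF5AL1) with a median of -0.0006. Leaving out a library of 100 cells leaves a lone library, so only the effect is given. The median log2 difference of the factor genes was 0.0174 without 100 cells Rep 1 and -0.0058 without 100 cells Rep 2.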

How the data were processed

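RNA of sorted HAP1 cells was sequenced in 9 libraries. The authors used Trim Galore 0.6.7 for adapter trimming, HISAT2 2.2.1 for alignment to hg38, SAMtools 1.16.1 for sorting and featureCounts (Subread 2.0.6) for counting. The annotation release is not given in the sources used here. The deposited values are whole read counts per gene, counted by strand over exons, per the file headers, with reads and not pairs as the unit, and without normalization or molecular identifiers. Reads that map to several places or overlap several gene models are not in the counts, which lowers genes with close copies.

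The counts were analysed in R 4.3.3 with edgeR 4.0.16 (TMM, filterByExpr, quasi-likelihood test, Benjamini-Hochberg at 0.05), with limma 3.58.1 and DESeq2 1.42.0 as alternatives, and in Python 3.11.15. Log2 CPM used a prior count of 2, and TPM used the deposited gene lengths. Totals of 42842970 to 61645865 counts set the precision. Alternatives covered library size, tool, filter, depth, replicate number as a block, and each library left out. The genes, gene lists and pairs were chosen with earlier results of these data known. Named were the genes called, the highest and lowest TPM of each role, both genes of each pair, the 5 widest ranges among single cells, genes with a count of 0, and others where the text says so or to complete a complex.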

Additional observations from a re-analysis of the deposited data

How the results depend on the processing

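For single cells against the 6 other libraries, 7 factor genes were called (1 higher, 6 lower). DESeq2 called 14 of 61 (15.9% of all genes) and the test without a filter on low counts 4 of 61 (3.31% of all genes). Limma voom over all 9 libraries, with a spread per cell number, called 0, where 8 of all genes were called. The edgeR fit over all 9 libraries with a common spread, and single cells against 1000 cells alone, each called 0 of all genes. The range over leaving out each library was 0 to 11, with 0 to 3188 of all genes. With the replicate number as a block, 2 were higher and 7 lower, where 12.4% of all genes were called. That fit also leaves out Single Cell Rep 3, since it has no partner. Without Single Cell Rep 3 alone as many factor genes were called, where 15% of all genes were. All 7 genes kept their direction in all 18 alternatives, and the number in which they passed the threshold was 12 for EIF1AD and EIF3A, 11 for EIF2S2 and EIF3J, 7 for EIF3M and EIF4E and 5 for EIF4G2. For 10 against 1000 cells, where 0 were called, DESeq2 and the test without a filter each called 1 and leaving out a library gave 0 to 21, and for 100 against 1000 cells leaving out a library gave 0 to 21. The cause was not tested. Same-numbered libraries did not deviate together (correlations of deviations from the group means of -0.0251 to 0.0511), so the numbers do not pair them. The share of EIF4E2 differed by 10.9 to 14.1 percentage points over its alternatives, 13.8 with the replicate block and also without Single Cell Rep 3 alone. No share passed the threshold in any alternative, where 1 pair alone could not have passed after adjustment over the 7 pairs. Replicate libraries differed by more than sampling noise.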

Other observations

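EIF3IP1, an annotated pseudogene of EIF3I that the naming rule left out, had 22, 4 and 210 counts in Single Cell Rep 1, 2 and 3, against 3 to 15 counts in the 6 libraries of 10, 100 and 1000 cells. EIF3I itself, an eIF3 subunit, had 173.9, 150.2 and 114.1 CPM in the single cells, against 147.9 to 164.2 CPM in the other libraries. EIF3I was lowest in the cell with the most EIF3IP1 counts and highest in the cell with the next most. EEF1DP3, a pseudogene of EEF1D, had 96, 0 and 0 counts in the single cells and 13 to 50 counts in the others. EIF3J-AS1, which runs away from EIF3J on the other strand, had 227, 284 and 697 counts in the single cells and 312 to 663 counts in the others. These genes were chosen after their values were seen, and no test was made.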
